A study of Homo sapiens with 6 samples.

Results

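The core of B cell receptor signalling was followed through 9 genes in the human cell line SU-DHL-4, a diffuse large B-cell lymphoma of the germinal centre kind. They were picked by name from the 29489 genes of the table: the receptor chains CD79A and CD79B, the kinases LYN, SYK and BTK, the adaptor BLNK, the phospholipase PLCG2, the inhibitory receptor CD22 and the phosphatase PTPN6. All 9 were found, each in 1 row. The series holds 6 poly(A) RNA-seq samples, 3 titled CON and 3 titled KD, all of the same line and with no treatment given. The labels name neither the gene lowered in KD nor the means used, while the series title is concerned with the transcription factor ZHX2. Values are FPKM, fragments counted per gene and divided by transcript length and by the size of the library, so the level of 1 gene can be compared with that of another, but sequencing depth is unknown.

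On antigen binding, the B cell receptor signals through CD79A and CD79B, which sit beside the membrane immunoglobulin and carry tyrosine motifs in their tails. LYN phosphorylates these motifs, SYK docks on them, and BLNK then gathers BTK and PLCG2, which splits a membrane lipid to release calcium and activate protein kinase C. CD22, phosphorylated by LYN, recruits PTPN6 (SHP-1), and the pair dampens the signal. Lymphomas of the B lineage often depend on this receptor, and SYK and BTK are drug targets.

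Replicate 1 of each group is a scaled copy of the other two: in KD their mean over 1.2 (29489 genes), in CON their mean over 1.1 (29488 genes, all but ZHX2), at a relative tolerance of 1e-09. Only replicates 2 and 3 were compared, 2 libraries a group. ZHX2 measured 38.5 and 36.7 FPKM in the CON libraries against 11.0 and 11.0 FPKM in the KD libraries, but its row in the authors' deposited table lists an impossible fold change of -4.62, so it cannot check the labels. Library sums of FPKM ran from 267622 to 273768. Genes with a mitochondrial (MT-) name held 25.6 to 25.9% of that sum in CON and 29.9 to 30.3% in KD, which lowers the share left for other genes. B cell markers were present: among those outside the 9 genes, MS4A1 (CD20) was at 86.4 to 124 FPKM and PAX5 at 43.1 to 44.5 FPKM, although BANK1 was under 0.02 FPKM in each library. The germinal centre markers BCL6 (58.8 to 69.6 FPKM) and MME (38.8 to 40.6 FPKM) were present. By the filter used for testing, 2 of 7 T and NK cell markers in the table, 0 of 6 myeloid ones and 2 of 5 epithelial and fibroblast ones were expressed. The T and NK cell markers summed to 3.38 and 3.65 FPKM in CON and 4.04 and 3.83 FPKM in KD, the myeloid ones to 0.119 and 0.125 against 0.671 and 0.678 FPKM, and the epithelial and fibroblast ones to 4.62 and 5.07 against 5.02 and 4.91 FPKM. The near-equal epithelial and fibroblast sums hide opposite moves of the means from CON to KD. DCN went from 3.44 to 1.88 FPKM, LUM from 1.35 to 2.38, PDGFRB from 0.0405 to 0.478 and COL1A1 from 0.00728 to 0.223 FPKM. TRAC and LYZ were at 0 in each CON library and at most 0.0676 FPKM in KD. The part of these traces in the results was not tested.

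RefSeq windows (GRCh38.p14) of 250 bases before an annotated start were held for 7 of the 9 genes, CD79B and LYN having none in the table used. The windows of CD79A and BLNK, which fell most among these 7, and of CD22, which did not pass the test, are shown 5′ to 3′ on the strand of the gene. Capitals mark the ETS core GGAAGT on either strand, the letters bound by factors such as ETS1 and PU.1.
CD79A, chr19:41877029-41877278, plus strand: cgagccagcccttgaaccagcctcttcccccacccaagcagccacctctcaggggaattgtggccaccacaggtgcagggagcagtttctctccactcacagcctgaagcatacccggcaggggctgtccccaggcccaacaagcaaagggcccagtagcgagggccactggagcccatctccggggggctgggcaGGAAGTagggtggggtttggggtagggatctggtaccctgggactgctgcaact
BLNK, chr10:96271570-96271819, minus strand: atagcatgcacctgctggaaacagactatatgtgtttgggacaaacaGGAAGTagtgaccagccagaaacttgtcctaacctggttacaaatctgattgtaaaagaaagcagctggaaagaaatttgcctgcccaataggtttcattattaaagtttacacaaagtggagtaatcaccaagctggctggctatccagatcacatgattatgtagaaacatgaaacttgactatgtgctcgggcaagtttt
CD22, chr19:35328937-35329186, plus strand: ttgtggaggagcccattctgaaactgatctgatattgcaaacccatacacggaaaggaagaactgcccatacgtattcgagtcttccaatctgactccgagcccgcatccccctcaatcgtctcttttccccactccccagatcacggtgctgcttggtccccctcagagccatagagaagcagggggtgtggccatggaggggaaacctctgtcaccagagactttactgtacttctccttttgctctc
The ETS core begins 54 bases before the start of CD79A and 203 bases before that of BLNK, and the CD22 window holds none. It was found in 7 of the 11 windows of the 7 genes, against 19.5% of 34943 windows of this length. The matched windows belong to 6 of the 7 genes (CD79A, SYK, BTK, BLNK, PLCG2 and PTPN6). No share per gene was computed to set beside that count, which several windows per gene raise. Of these 6, CD79A, SYK, BLNK and PLCG2 passed the test as lower in KD, PTPN6 passed as higher, and BTK did not pass. A link between the matches and the changes was not tested. Genes with several starts have several windows, some of which overlap, and the GENCODE 29 starts of CD79A, BLNK, SYK and PTPN6 lie inside a RefSeq window of theirs. The CD22 window lies within the gene, downstream of its GENCODE 29 start at 35319261, and the stretch before that start was not searched. The octamer ATTTGCAT, read by the POU2F factors, was in 0 of the 11 windows (1.63% of all), the core CCCNNGGG read by EBF1 in 3, of BTK and PTPN6 (17% of all), and the E-box CAGNTG in 7 (42.5% of all), both strands searched. These are matches of letters, in windows whose GC content was 40.4% in BLNK, 52.8% in CD22 and 64.0% in CD79A.

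The receptor chains and the first steps below them were lower in KD. CD79A, CD79B, LYN, SYK and BLNK fell, also in each of 13 alternative settings, among them a fit that includes the copied replicate 1 columns. PLCG2 fell too, but its call was lost in 8 of the 13, and BTK and CD22 did not pass the test. Tests were made with limma, a linear model that shares its estimate of spread across genes, on log2(FPKM + 1) for the 11916 genes that reached 1 FPKM in 2 or more of the 4 libraries. PTPN6, under 1 FPKM in both CON libraries, passed this filter only through KD, where it was higher, and is described apart. At an adjusted p under 0.05, 6 of the other 8 genes were called lower (5 without PLCG2), where of all tested genes 31.1% were called lower, 27.6% higher and 58.6% in either direction. The median log2 change of the 8 was -0.41, against -0.02 for all tested genes, and none of the 8 reached a fitted change of 2-fold. All 8 were lower in KD with no overlap between the groups, as were 42.9% of all tested genes (38.8% were higher and 81.6% apart in either direction). In bulk RNA, fewer cells of a type and less RNA per cell cannot be told apart. The labels do not say whether the libraries are separate cultures. The p-values therefore cover only how far these samples differ, a spread that may be technical. An exact permutation test, two-sided, of 2 against 2 libraries cannot go below p = 0.33.

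**Figure D1:**
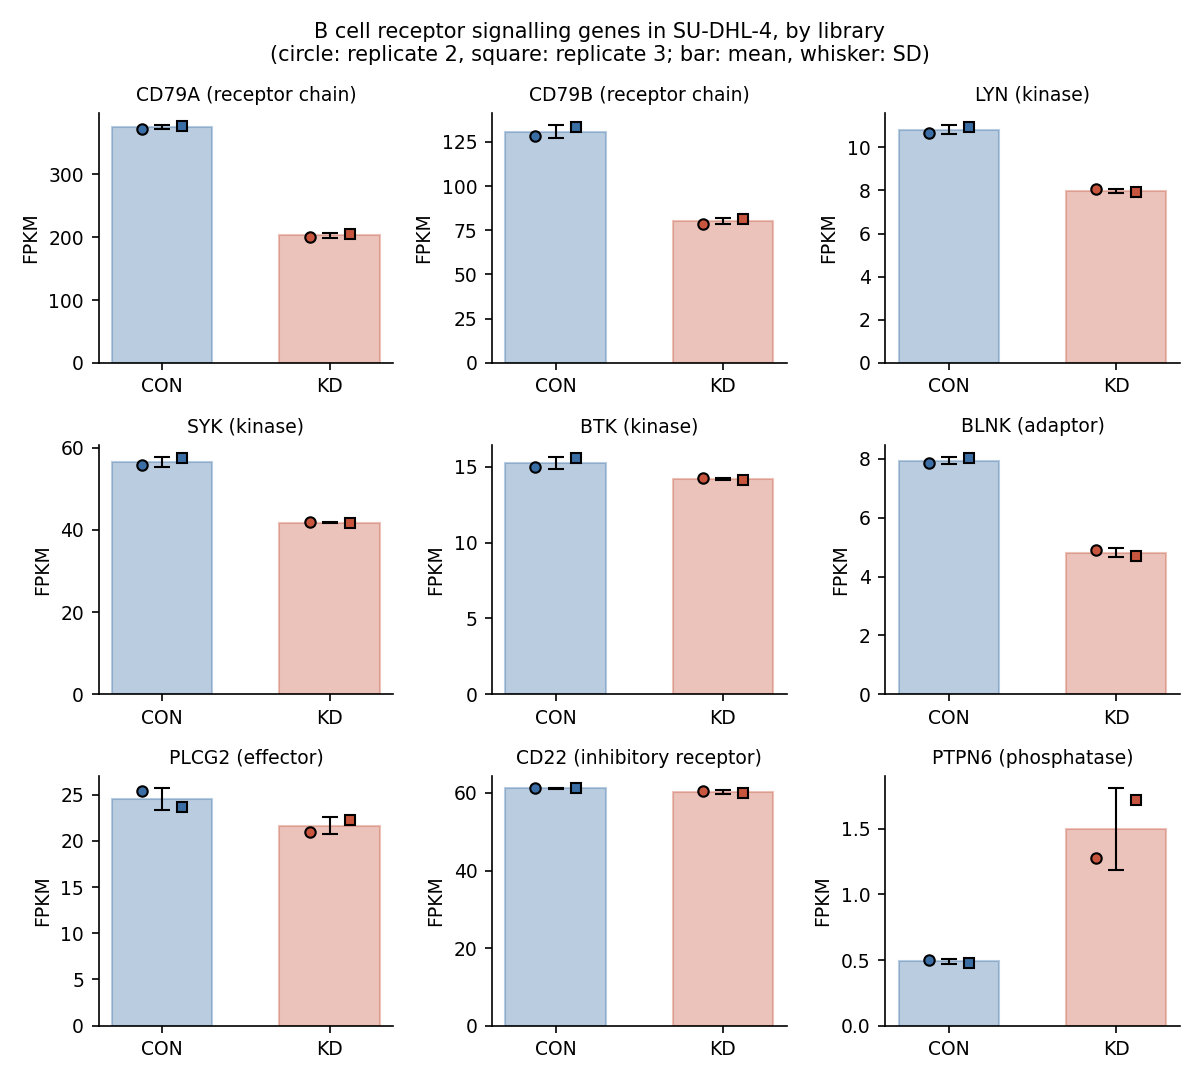
FPKM of each of the 9 genes (vertical axes, each from 0) in CON and KD, with replicate 2 as a circle, replicate 3 as a square, the mean as a bar and the SD (n = 2) as a whisker. CD79A falls from a mean of 375 to 203 FPKM, CD22 is near 60 FPKM throughout, and PTPN6 lies under 2 FPKM in every library.

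CD79A (ENSG00000105369, GRCh38 chromosome 19, 41877120 to 41881372, plus strand, positions here and below from GENCODE 29) was the most abundant of the 9. It measured 373 and 377 FPKM in the CON libraries against 200.3 and 206 FPKM in the KD libraries. Both KD libraries lay far below both CON libraries, which differed from each other by about as much as the KD libraries did. The means were 375 ± 3.42 and 203 ± 3.81 FPKM (SD, n = 2), so KD held 54.1% of the CON level, and CD79A went from rank 62 to rank 113 among all genes of the table. Its log2(FPKM + 1) value fell by 0.88 (SE 0.0225, limma adjusted p = 4.36e-05).

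CD79B (ENSG00000007312, chromosome 17, 63928740 to 63932354, minus strand), its partner in the receptor, measured 128 and 133 FPKM in the CON libraries against 78.8 and 81.4 FPKM in the KD libraries. It too was lower in both KD libraries, by less than CD79A. The means were 131 ± 3.63 and 80.1 ± 1.82 FPKM (SD, n = 2), and the log2 change was -0.70 (SE 0.0318, limma adjusted p = 1.99e-04). A gene annotated on the same strand, AC127029.3, shares exon positions with CD79B but was at 0.118 FPKM or less. The ratio of CD79A to CD79B, which no single divisor per library can move, was 2.91 and 2.83 in CON and 2.54 and 2.53 in KD. CD79A thus fell further than CD79B in both KD libraries, a difference of -0.18 on the log2 scale of the ratio. Quantile scaling, which is not a single divisor, brought the log2 changes closer, to -0.74 for CD79A and -0.67 for CD79B. By the smallest Euclidean distance between centred log2(FPKM + 1) values of the 4 libraries, the genes most like CD79A were IARS1 (distance 0.0136), ETS1 (0.0331) and ASNS (0.0402). For CD79B they were TMEM267 (0.0162), LAMTOR5-AS1 (0.0231) and BISPR (0.0261). With 4 libraries in 2 groups, this likeness mostly reads the size of the fold.

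LYN (ENSG00000254087, chromosome 8, 55879813 to 56014168, plus strand) is the SRC family kinase that starts the signal and also phosphorylates CD22. It measured 10.7 and 11.0 FPKM in the CON libraries against 8.05 and 7.91 FPKM in the KD libraries. The KD libraries were lower, with means of 10.8 ± 0.210 and 7.98 ± 0.0988 FPKM (SD, n = 2) and a log2 change of -0.40 (SE 0.0444, limma adjusted p = 0.00196). LYN was not the main SRC family transcript of the line. YES1, another member, was not found by name and is left out of the shares that follow. Of the summed FPKM of 7 family genes, LCK, best known from T cells, held 46.4 and 46.0% in CON and 41.9 and 40.8% in KD, BLK held 30.0 to 34.4% over the 4 libraries, and LYN held 9.26 and 9.42% in CON and 8.48 and 8.36% in KD. LCK fell from 53.5 to 39.2 FPKM (by log2, -0.44, limma adjusted p = 5.00e-04) and FGR from 7.26 to 4.73 FPKM (-0.53, adjusted p = 0.00915), while SRC rose from 7.24 to 9.58 FPKM (0.36, adjusted p = 0.00660). BLK, at 34.5 and 35.4 FPKM in CON and 31.4 and 32.5 FPKM in KD, and FYN, at mean levels of 1.92 and 1.31 FPKM, also passed, but those calls were lost in 9 and 5 of the 13 alternative settings.

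SYK (ENSG00000165025, chromosome 9, 90801787 to 90898549, plus strand), which binds the phosphorylated receptor tails, measured 55.7 and 57.4 FPKM in the CON libraries against 41.8 and 41.8 FPKM in the KD libraries. The KD libraries were lower and almost identical. Means were 56.6 ± 1.21 and 41.8 ± 0.00677 FPKM (SD, n = 2), and the log2 change was -0.43 (SE 0.0293, limma adjusted p = 5.13e-04). SYK and LYN fell in the same proportion. Their ratio was 5.23 and 5.24 in CON and 5.19 and 5.28 in KD, and each stood in KD at 73.8% of its CON level. ZAP70, the relative of SYK in T cells, was under 0.03 FPKM in every library.

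BTK (ENSG00000010671, chromosome X, 101349447 to 101390796, minus strand), the TEC family kinase that activates PLCG2, measured 15.0 and 15.6 FPKM in the CON libraries against 14.2 and 14.2 FPKM in the KD libraries. Its groups lay side by side without overlap. The means were 15.3 ± 0.403 and 14.2 ± 0.0664 FPKM (SD, n = 2), with a log2 change of -0.10 (95% interval -0.20 to 0.00468, limma adjusted p = 0.0881). The ratio of SYK to BTK was 3.72 and 3.69 in CON and 2.93 and 2.95 in KD. TEC, a relative of BTK, stood at 2.59 and 2.07 FPKM in CON and 3.19 and 3.45 FPKM in KD (log2 change 0.38, limma adjusted p = 0.0292), a call lost in 4 of the 13 alternatives. BMX and TXK, also relatives, were under 0.3 FPKM.

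BLNK (ENSG00000095585, chromosome 10, 96191702 to 96271587, minus strand), the scaffold that joins SYK to BTK and PLCG2, was the least abundant of the 8 genes above 1 FPKM in all libraries. It measured 7.85 and 8.04 FPKM in the CON libraries against 4.92 and 4.70 FPKM in the KD libraries. Both KD libraries were lower, at 60.5% of the CON level, close to the 61.2% of CD79B. Means were 7.94 ± 0.134 and 4.81 ± 0.156 FPKM (SD, n = 2), and the log2 change was -0.62 (SE 0.0526, limma adjusted p = 9.02e-04). Exons of ZNF518A lie on the opposite strand within BLNK, with the strand setting for counting not given in the sources used here. ZNF518A itself was at 5.37 and 5.42 FPKM in CON and 4.98 and 5.70 FPKM in KD. The ratio of BLNK to BTK was 0.523 and 0.516 in CON and 0.345 and 0.332 in KD.

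PLCG2 (ENSG00000197943, chromosome 16, 81739097 to 81962693, plus strand), the phospholipase at the end of this core, measured 25.4 and 23.7 FPKM in the CON libraries against 21.0 and 22.3 FPKM in the KD libraries. The highest KD library lay just below the lowest CON library. Means were 24.5 ± 1.18 and 21.6 ± 0.899 FPKM (SD, n = 2), and the log2 change was -0.17 (SE 0.0510, limma adjusted p = 0.0368). This call was lost in 8 of the 13 alternatives, whose adjusted p ranged from 0.0277 to 0.155, among them the fit without CON replicate 2 (0.155) and that without KD replicate 2 (0.127). An overlapping noncoding gene on the same strand, AC099524.1, shares exon positions with PLCG2 and was at 5.70 and 6.09 FPKM in CON and 2.33 and 2.42 FPKM in KD. Its part in the PLCG2 value was not tested. PLCG1, the other gamma enzyme, stood at 21.0 and 20.0 FPKM in CON and 25.0 and 23.5 FPKM in KD, and rose by 0.23 (limma adjusted p = 0.0123), a call lost in 3 of the 13 alternatives. PLCG2 exceeded PLCG1 in both CON libraries, at a ratio of 1.21 and 1.18, and lay below it in both KD libraries, at 0.841 and 0.949.

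**Figure D2:**
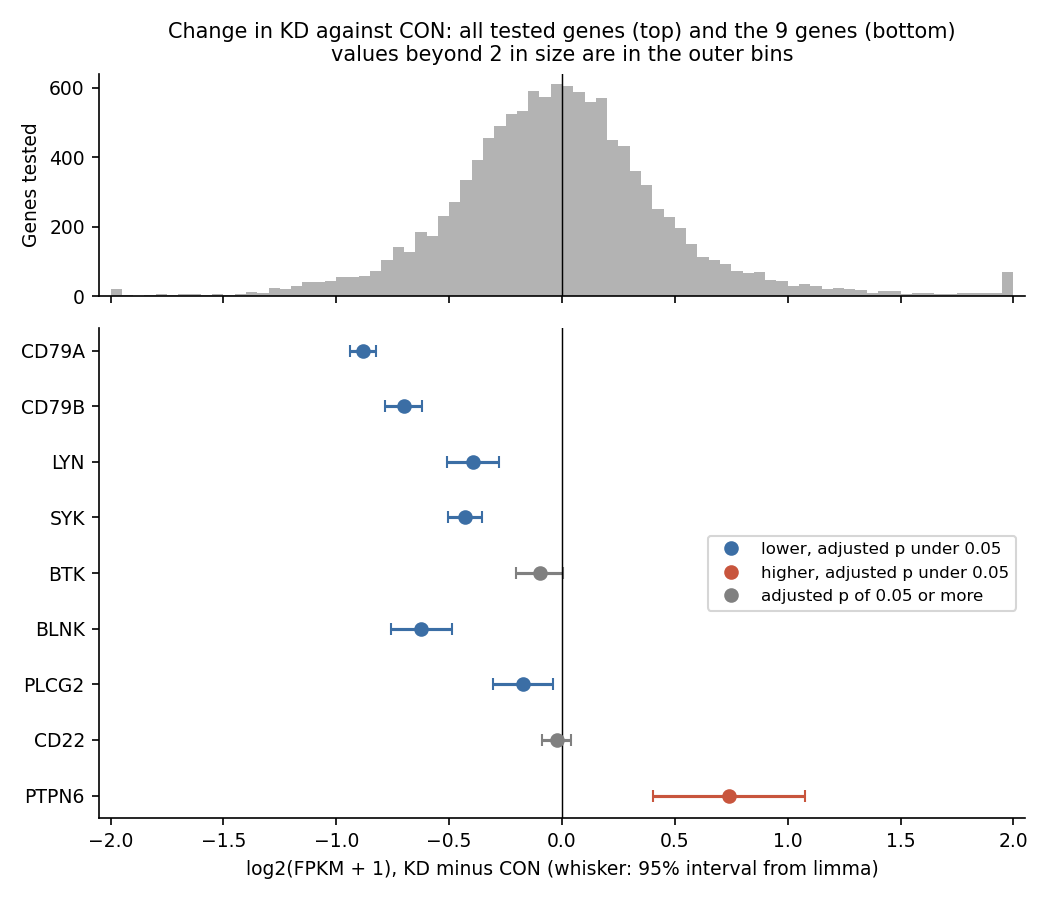
Top, number of tested genes (vertical axis) by log2 change on the log2(FPKM + 1) scale (horizontal axis, KD minus CON). Bottom, the change of each of the 9 genes with its 95% interval from limma. CD79A and CD79B are at -0.88 and -0.70, the intervals of BTK and CD22 include 0, and PTPN6 is at 0.74.

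CD22 (ENSG00000012124, chromosome 19, 35319261 to 35347355, plus strand), the inhibitory receptor that binds sialic acid, measured 61.2 and 61.3 FPKM in the CON libraries against 60.6 and 59.9 FPKM in the KD libraries. All 4 libraries lay within 2 FPKM of each other. The means were 61.2 ± 0.0680 and 60.2 ± 0.470 FPKM (SD, n = 2), with a log2 change of -0.02 (95% interval -0.09 to 0.04, limma adjusted p = 0.470). U62631.1, annotated on the same strand, shares exon positions with CD22. It was at 0 and 8.18 FPKM in CON and 7.89 and 0 FPKM in KD, so it varied within each group. Its part in the CD22 value was not tested. SIGLEC10, a relative of CD22, was at mean levels of 17.2 and 14.7 FPKM in CON and KD (log2 change -0.21, limma adjusted p = 0.0239), a call lost in 5 of the 13 alternatives. The sign of the CD22 change turned under 3 other scalings of the libraries, with no call under any. Against CD22, CD79A went from a ratio of 6.09 and 6.16 in CON to 3.31 and 3.43 in KD, and CD79B from 2.10 and 2.18 to 1.30 and 1.36.

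PTPN6 (ENSG00000111679, chromosome 12, 6946468 to 6961316, plus strand), the phosphatase recruited by CD22, was nearly silent in this line. It measured 0.503 and 0.477 FPKM in the CON libraries against 1.27 and 1.72 FPKM in the KD libraries. Both KD libraries were higher, and they differed from each other by more than the CON libraries did. The means were 0.490 ± 0.0184 and 1.5 ± 0.314 FPKM (SD, n = 2), a 3.05-fold higher level. On the log2(FPKM + 1) scale, which compresses low values, it rose by 0.74 (SE 0.129, limma adjusted p = 0.00758), and with a pseudocount of 0.1 by 1.42 (adjusted p = 0.00768). Since only its KD libraries reached 1 FPKM, this call lends nothing to the count of members. With no filter its adjusted p was 0.0490. PTPN11 (SHP-2), its close relative, stood at 17.8 and 18.8 FPKM in CON and 18.9 and 18.8 FPKM in KD, so PTPN11 exceeded PTPN6 by 35.3 and 39.4 times in CON and by 14.8 and 11.0 times in KD.

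The order of the 9 levels in FPKM was the same in all 4 libraries: CD79A, CD79B, CD22, SYK, PLCG2, BTK, LYN, BLNK and PTPN6. No 2 neighbours in this order overlapped within a group. The authors' deposited table lists q-values under 0.05 for 8 of the 9 genes, all but CD22 (0.858). It marks 1 of the 9 as significant, PTPN6, at a linear fold change of 3.05 in the authors' deposited table. Every gene so marked in the authors' deposited table has a linear fold of at least 2 or at most 0.5, ZHX2 with its entry below 0 excepted, and CD79A, at 0.541 there, falls short of that. BTK had a q-value of 0.0498 in the authors' deposited table, against the adjusted p of 0.0881 found here.

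**Figure D3:**
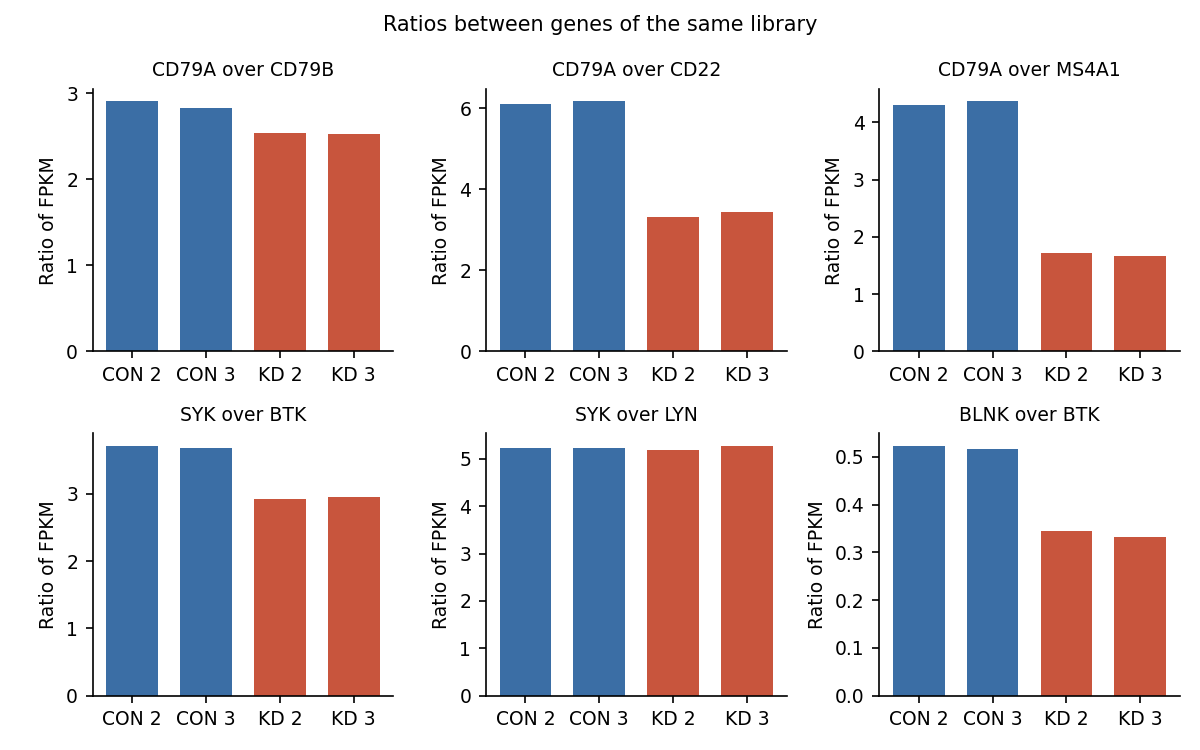
Ratio of FPKM between genes of the same library (vertical axes, each from 0) in CON (blue) and KD (red) replicates 2 and 3, 1 bar per library. CD79A loses ground to CD79B, CD22 and MS4A1, SYK and BLNK lose ground to BTK, and the SYK to LYN ratio lies between 5.19 and 5.28.

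Of 11 tested immunoglobulin constant and J chain genes, 9 were called lower and 1, IGHA1 (0.25), higher, where 31.1% and 27.6% of all tested genes were called so. Their median change was -0.61 (log2). Values per gene do not separate membrane from secreted forms, and JCHAIN belongs to secreted immunoglobulin. IGKC, the kappa light chain, fell from 2786 to 1829 FPKM (by log2, -0.61, limma adjusted p = 3.16e-05), IGHG4 from 782 to 538 FPKM (-0.54, adjusted p = 7.83e-05) and JCHAIN from 195 to 124 FPKM (-0.64, adjusted p = 1.12e-04). Reads of near-identical genes, IGHG1 to IGHG4 and likewise IGLC1 to IGLC3, may be split between them, which leaves each level uncertain. Both families are among the 9 genes called lower, which are thus not 9 separate results. The CD79A to IGKC ratio was 0.134 and 0.135 in CON and 0.110 and 0.112 in KD. MS4A1, by contrast, rose from 86.4 to 120.2 FPKM (0.47, limma adjusted p = 6.27e-04), and the CD79A to MS4A1 ratio went from 4.31 and 4.37 in CON to 1.72 and 1.66 in KD.

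The other genes of the pathway went both ways, and the counts below stand against 27.6% higher, 31.1% lower and 58.6% in either direction over all tested genes. Of 46 tested genes that the authors' annotation places in the KEGG B cell receptor pathway, the 9 left out, 20 rose and 13 fell, and the median change was 0.06 (log2). The KEGG pathway includes distal and shared genes: JUN and FOS, subunits of the AP-1 factor, had the smallest adjusted p, rising from 1.11 to 182 FPKM and from 0.0338 to 21.2 FPKM. FOS, counted among the 20, passed the filter only through KD. Among 6 tested coreceptor and membrane genes, 3 rose and 3 fell. The tetraspanins among them were split on the log2 scale. CD37 (-0.40) and TSPAN33 (-0.41) fell, while CD82 (0.65) and CD81 (0.17, limma adjusted p = 0.00670) rose. Among 17 adaptors and exchange factors, 5 rose and 4 fell, a called share no larger than the 58.6% of all tested genes, with DOCK8 (-0.74) and GRB2 (-0.27) lower and GAB2 (0.62) higher.

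Below PLCG2, of 27 tested genes of the PI3 kinase, calcium and protein kinase C branch, 10 rose and 6 fell, a called share near the 58.6% of all tested genes, and the median change was 0.04 (log2). The calcineurin subunit PPP3CC (0.89) rose, and the calcium channel ITPR2, opened by the product of PLCG2, fell by 0.59 on the log2 scale. Of 16 genes of the branch that leads to NF-kB through BCL10 and MALT1, 8 rose and 4 fell, against 27.6% and 31.1% of all tested genes. Their median change was 0.15. BIRC3 (1.17) and TNFAIP3 (0.73), themselves known NF-kB targets, rose and RBCK1 (-0.64) fell. Of 21 tested inhibitory receptors and phosphatases besides CD22 and PTPN6, 4 rose and 7 fell, again no larger a share than the 58.6% of all tested genes, with a median of 0.01. INPP5D (SHIP1), the lipid phosphatase that opposes PI3 kinase, fell from 26.9 to 18.9 FPKM (-0.49) and PTPN18 by 0.38 on the log2 scale. FCRLA, listed with its FCRL relatives though not itself an inhibitory surface receptor, fell by 0.33. Limma adjusted p values of the genes named in these 2 paragraphs were at most 0.00308 where none is given.

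**Figure D4:**
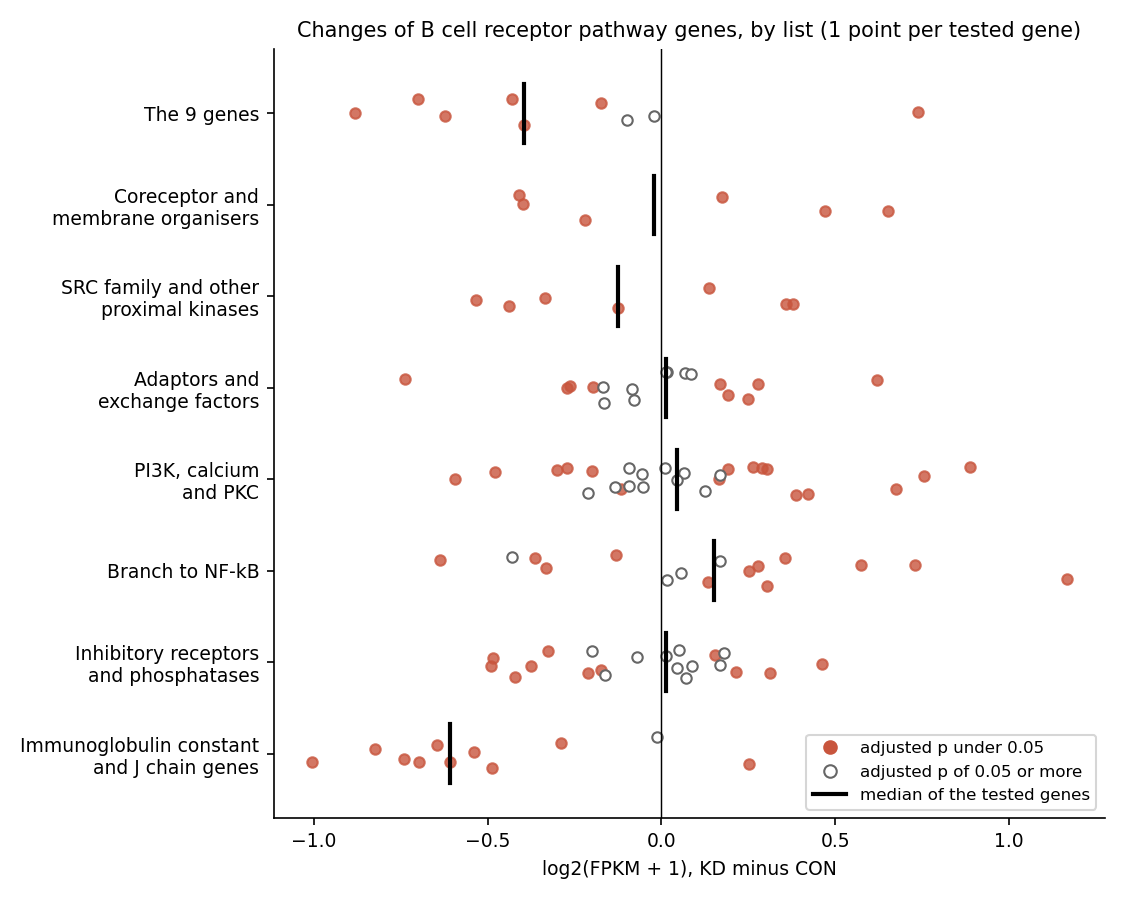
log2 change (horizontal axis, log2(FPKM + 1), KD minus CON) of each tested gene of 7 lists and of the 9 genes, filled where the limma adjusted p is under 0.05, with the median as a black line. The medians of the 9 genes, PTPN6 included (-0.40), and of the immunoglobulin and J chain genes (-0.61) lie left of 0, and those of the coreceptor, adaptor and PI3 kinase lists lie within 0.05 of 0.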

How the data were processed

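The authors deposited 1 table of FPKM per gene for 6 samples, and, for KD over CON, the fold change, its log2 value, the p-value and the q-value, per the file headers. Tools listed in the submitters' processing notes are fastp, HISAT2, StringTie and edgeR, with build GRCh38, without versions, roles or order. Libraries were made from poly(A) RNA with dUTP in the second strand, per the labels' protocols (strand setting for counting not given in the sources used here). No steps of whole reads were found among low values: the ratio seen most often between a pair of libraries was shared by at most 34 of 5706 single-transcript genes. Depth is thus unknown. Replicates 2 and 3 were used.

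The 11916 genes that reached 1 FPKM in 2 or more of the 4 libraries were fitted as log2(FPKM + 1) with limma 3.58.1 (R 4.3.3), group as the only term, a mean-variance trend, two-sided, Benjamini-Hochberg adjusted at 0.05, with 2 residual and 2.85 prior degrees of freedom. A fold change on this scale understates that of low genes. The fit was tested on simulated data with independent normal noise and few changed genes. Those settings differ from the data here, so that test cannot vouch for the calls above. The members and 14 gene lists were chosen with earlier results of these data known, so their counts are descriptions. Named genes are the 9 members, up to 3 called genes with the smallest adjusted p per list, expressed paralogs, cell type markers and the 3 genes most like CD79A or CD79B. Some genes under these rules are not reported here. POU2F2, SPI1, EBF1, IKZF3 and IGHA1 were named after their values were seen, as were FOXO1, RUNX1, MEF2C, POU2F1, SPIB, TCF3, CD81 and CD82. Motifs and the windows shown were chosen with the members' results known. The 13 alternatives were no filter, a mean of at least 5 FPKM, a pseudocount of 0.1, 3 scalings (median-ratio, quantile, a common sum without MT- genes), no trend, all 6 columns, a replicate block and leaving out each of the 4 libraries. The fit with all 6 columns treats the scaled copies as libraries, so it adds no evidence of its own.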

Additional observations from a re-analysis of the deposited data

How the results depend on the processing

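CD79A, CD79B, LYN, SYK and BLNK kept their direction and their call in all 13 alternatives, and PTPN6 in the 12 that tested it. BTK was called in none of the 13. Leaving out 1 library at a time gave log2 changes of -0.90 to -0.86 for CD79A, -0.73 to -0.67 for CD79B, -0.41 to -0.38 for LYN, -0.45 to -0.41 for SYK, -0.65 to -0.60 for BLNK, -0.12 to -0.07 for BTK, -0.03 to -0.01 for CD22, -0.22 to -0.13 for PLCG2 and 0.61 to 0.87 for PTPN6. The PLCG2 call was lost with no filter on low values (log2 change -0.17, limma adjusted p = 0.114), under median-ratio scaling (-0.15, 0.0615), with a common sum of the genes without an MT- name (-0.12, 0.108), with no mean-variance trend (-0.17, 0.0727), with all 6 columns (-0.21, 0.104) and with the replicate number as a block (-0.17, 0.0619). CD22 turned to 0.00227 under median-ratio scaling, 0.0140 under quantile scaling and 0.0337 with the common sum. With all 6 columns, whose replicate 1 divisors differ between the groups and so shift nearly all genes downward, PAX5 went from 0.02 to -0.0163, which says nothing of that gene. A filter at a mean of 5 FPKM left 0 genes of the 9 called higher, since PTPN6 was no longer tested. Same-numbered libraries share only a number: their deviations correlated at 0.00473 across 11916 genes, and the replicate block gave 6582 called genes against 6986, 5 of the 9 genes lower and 1 higher. Of 716 values of 56 other named genes, 659 kept direction and call, 51 lost a call, 5 gained one (4 of them of EBF1) and 1 changed sign. FOXO1, RUNX1, MEF2C, POU2F1, SPIB, TCF3, CD81 and CD82 are outside these 56. Depth is unknown, so no counting error could be given.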

Other observations

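Transcription factors of B cells, which control genes of the receptor core, were not described above. Of 20 tested, 6 rose and 7 fell in KD by limma at an adjusted p under 0.05, shares near the 27.6% and 31.1% of all tested genes, and the median log2 change was -0.01. MEF2B fell from 273 to 135 FPKM (by log2, -1.01, limma adjusted p = 3.58e-05), and ETS1 fell from 68.6 and 69.9 FPKM in CON to 36.7 and 36.7 FPKM in KD (-0.90, adjusted p = 7.11e-05). The octamer factor POU2F2 (OCT2) went from 17.1 to 9.40 FPKM (-0.80, adjusted p = 5.90e-04), and IKZF3 (Aiolos) from 17.7 to 12.4 FPKM (-0.48, adjusted p = 7.10e-04). IRF8 rose from 17.1 to 26.5 FPKM (0.60, adjusted p = 2.95e-04). SPI1 (PU.1), another ETS factor, stood at 24.9 and 21.5 FPKM in CON and KD (-0.20, adjusted p = 0.00794), and EBF1 at 8.04 and 6.90 FPKM (-0.20, adjusted p = 0.0555). Across the 13 alternatives EBF1 was called lower in 4, among them the fit without KD replicate 3 (adjusted p = 0.0348). PAX5, which activates CD79A in B cells, stood at 43.1 and 43.9 FPKM (0.02, adjusted p = 0.504). FOXO1 (0.41), BCL6 (0.22), RUNX1 (0.24), MEF2C (0.17) and POU2F1 (0.24), like POU2F2 an octamer factor, were also called higher. SPIB (-0.39) and TCF3 (-0.13) were also called lower. IRF4, PRDM1 and XBP1, genes of plasma cell differentiation, were under 0.2 FPKM in every library.

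Of 8 tested germinal centre markers, 5 rose and 2 fell, where 58.6% of all tested genes were called in either direction, with MYBL1 (0.73) and GCSAM (0.38) higher and SERPINA9 (-0.58) lower in KD on the log2 scale, at limma adjusted p of 9.53e-04, 0.00133 and 9.04e-04.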
